A study of Mus musculus with 12 samples.

Results

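The 9 genes described here encode receptors of the TNF receptor superfamily that T cells use for costimulation or death signalling. They are Tnfrsf4 (the receptor OX40), Tnfrsf9 (4-1BB), Tnfrsf18 (GITR), Tnfrsf8 (CD30), Tnfrsf1a and Tnfrsf1b (the 2 receptors of TNF), Tnfrsf25 (DR3), Cd27 and Fas. They were picked by name, as known members of the family, from a table of 48709 genes, and all 9 were found and passed the filter for testing (at least 1 TPM in at least 3 libraries). The RNA was that of CD8 T cells of the OT-I strain, in which a transgene gives T cells a receptor specific for ovalbumin. Naive cells from the spleen were compared with cells collected 24, 48 and 72 h after activation began, in 4 groups of 3 libraries that the submitters call biological replicates. Activation used antibodies to CD3 at 2 µg/ml and to CD28 at 1 µg/ml, with IL-2 at 10 ng/ml. It ended at 48 h, when the cells left the antibody plates. Cells of the 72h group had thus been off the plates for their last day. No group stayed on the plates to 72 h, so from 48h to 72h effects of time and plate removal cannot be told apart. All groups share the OT-I background. The number of animals behind a group is not given in the sources used here, nor are the age and sex of the animals. The extraction notes mention OT-I cells that had been transferred, and whether that applies to these libraries is not given.

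Receptors of this family are bound by ligands that are themselves trimers, and clustering of the receptors draws adaptor proteins to their cytoplasmic tails. OX40, 4-1BB, GITR, CD30, CD27 and the TNF receptor encoded by Tnfrsf1b bind TRAF adaptors, which lead to NF-kappaB and to survival signals. The products of Tnfrsf1a, Tnfrsf25 and Fas carry a death domain and can recruit TRADD or FADD. Naive T cells are known to display CD27, whereas OX40, 4-1BB and CD30 are known as receptors that appear after stimulation of the T cell receptor.

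Expression was deposited as TPM, which corrects reads for transcript length and depth, so levels of different genes can be set side by side. Whole reads recovered from the TPM values came to between 14312690 and 19495639 per library, and each receptor gene had between 6 and 19340 reads in a library. Changes below are log2 fold changes of log2(TPM + 1) from a limma fit over the 12 libraries, with p-values adjusted over the 12630 genes tested in each comparison. Calls of higher or lower needed both an adjusted p below 0.05 and a log2 fold change of 1 or more in size. Comparisons against Naive share the Naive libraries, and successive steps share a group too, so their values are not independent. Of the labelled cell type's defining genes, Cd8a stood at 763 ± 24 TPM in Naive (mean ± SD, n = 3 here and below) and at 292 to 440 TPM in the activated groups, and Cd4 at 6.81 ± 2.49 TPM in Naive and under 1 TPM in every activated library. The Naive libraries also held markers of other cells. The summed level of 13 myeloid markers was 1118 to 2856 TPM in Naive, 22.9 to 31.1 at 24h, 12.9 to 16.4 at 48h and 6.63 to 7.63 at 72h, where 8 of them, among them Lyz2, C1qa and Csf1r, were listed at 0 in all libraries. For 10 B cell markers the sum was 3862 to 5732 TPM in Naive and 350 to 837 in activated libraries, for 8 NK cell markers 719 to 1208 and 23.3 to 155, and for 9 erythroid and platelet markers 1530 to 2136 and 2.01 to 17.2. The genes with the highest Naive means in these lists were Lyz2, Cd74, Cd7 and Hba-a2. In the NK list Cd7 and Gzma had the highest Naive means (372 and 329 TPM), and Gzma averaged 141 TPM at 72h. Its genes Ncr1, Klrb1c, Klra8, Klra4 and Klre1 averaged 8.59 to 18.5 TPM in Naive and 0.0941 to 2.06 TPM at 72h. Tyrobp was counted in both the myeloid and the NK list. A list of 6 CD4 and regulatory T cell genes, led by Cd40lg in Naive and by the activation gene Il2ra later, summed to 38.4 to 45.7 TPM in Naive and 448 to 1145 TPM in activated libraries. The rise was that of Il2ra, from 1.26 TPM in Naive to 447, 969 and 1095 TPM at 24h, 48h and 72h. The other genes of the list averaged at most 13.9 TPM in an activated group, and Cd40lg fell from 18.8 TPM in Naive to 4.15 TPM at 24h. In RNA from a mixed sample, a smaller share of a cell type and less RNA per cell cannot be told apart.

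Promoter sequences of the 4 receptor genes that rose at every time after activation are shown because these genes share a direction but part ways after the plates are removed. They are RefSeq sequences on GRCm38.p6, from 250 bases before to 50 bases after each transcription start, whereas the authors used GRCm39. Promoters of all 9 genes were in the table, 11 in number, since Tnfrsf9 and Tnfrsf25 have 2 starts each. Each is given 5′ to 3′ on the strand of the gene, and capitals mark matches, on either strand, to the 10-letter NF-kappaB consensus, to the AP-1 motif TGANTCA or to the NFAT core GGAAAA.
Tnfrsf9 upstream start, chr4:150919905-150920204, plus strand: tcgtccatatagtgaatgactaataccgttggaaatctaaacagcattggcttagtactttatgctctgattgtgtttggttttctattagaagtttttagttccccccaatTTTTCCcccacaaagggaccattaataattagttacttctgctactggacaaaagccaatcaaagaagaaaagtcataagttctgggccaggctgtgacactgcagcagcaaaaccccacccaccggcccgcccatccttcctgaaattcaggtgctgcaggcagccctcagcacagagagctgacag
Tnfrsf9 downstream start, chr4:150927749-150928048, plus strand: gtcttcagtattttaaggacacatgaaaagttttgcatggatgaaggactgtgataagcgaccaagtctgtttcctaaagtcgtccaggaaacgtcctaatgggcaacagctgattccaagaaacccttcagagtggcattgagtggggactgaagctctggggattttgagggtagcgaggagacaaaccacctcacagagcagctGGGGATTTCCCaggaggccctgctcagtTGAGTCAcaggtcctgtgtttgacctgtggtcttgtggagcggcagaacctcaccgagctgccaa
Tnfrsf4, chr4:156013445-156013744, plus strand: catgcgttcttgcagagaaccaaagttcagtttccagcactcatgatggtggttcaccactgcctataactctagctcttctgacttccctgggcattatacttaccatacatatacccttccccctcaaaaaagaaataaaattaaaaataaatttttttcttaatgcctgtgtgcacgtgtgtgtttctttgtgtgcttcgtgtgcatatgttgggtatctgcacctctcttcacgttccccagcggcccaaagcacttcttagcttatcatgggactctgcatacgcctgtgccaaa
Tnfrsf18, chr4:156026072-156026371, plus strand: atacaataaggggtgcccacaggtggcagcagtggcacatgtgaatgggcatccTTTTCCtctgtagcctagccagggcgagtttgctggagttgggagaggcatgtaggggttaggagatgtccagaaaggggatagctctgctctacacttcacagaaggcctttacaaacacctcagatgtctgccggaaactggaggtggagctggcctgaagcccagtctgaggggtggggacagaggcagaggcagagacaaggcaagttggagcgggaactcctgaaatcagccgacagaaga
Tnfrsf8, chr4:145315115-145315414, minus strand: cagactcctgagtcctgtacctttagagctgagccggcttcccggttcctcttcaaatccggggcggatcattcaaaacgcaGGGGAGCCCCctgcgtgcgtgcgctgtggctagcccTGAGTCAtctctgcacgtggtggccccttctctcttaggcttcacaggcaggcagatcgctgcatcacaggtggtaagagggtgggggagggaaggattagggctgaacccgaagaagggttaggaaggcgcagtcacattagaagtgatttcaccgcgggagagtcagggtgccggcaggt

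The downstream Tnfrsf9 start has 2 overlapping NF-kappaB consensus matches that begin 43 and 42 bases before the start, and an AP-1 match that begins 15 bases before it. In the Tnfrsf8 promoter an NF-kappaB match begins 168 bases and an AP-1 match 132 bases before the start. The upstream Tnfrsf9 start and Tnfrsf18 each hold 1 NFAT core, and the Tnfrsf4 window holds none of the 3 motifs. Among all 32851 promoters in the table, 4.51% hold the NF-kappaB consensus, 7.81% the AP-1 motif and 23.4% the NFAT core. Of the 11 receptor promoters, 2 hold the first, 3 the second (that of Fas among them) and 5 the last. A match describes letters in the window and not a bound site, and the TPM table gives 1 value per gene, so the 2 starts of Tnfrsf9 cannot be told apart in it.

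Tnfrsf4, Tnfrsf9, Tnfrsf18, Tnfrsf8, Tnfrsf1b and Tnfrsf25 lie on mouse chromosome 4, Tnfrsf1a and Cd27 on chromosome 6 and Fas on chromosome 19. In the GENCODE M21 annotation Tnfrsf4 and Tnfrsf18 are neighbours with no protein-coding gene between them, and both were called higher against Naive at all 3 times. Tnfrsf1b and Tnfrsf8 are neighbours too: against Naive their values lay on opposite sides of 0 at all 3 times (−1.34, −1.62 and −0.85 against 3.54, 6.01 and 7.64), and at 72h vs 48h both were above 0 (0.76 and 1.62). Genes annotated on the opposite strand overlap Tnfrsf9 (Camta1, mean 1.29 to 2.17 TPM in the 4 groups), Tnfrsf18 (Gm16008, 0.372 to 2.93 TPM) and Cd27 (Vamp1, 4.7 to 11.1 TPM). The strand setting of the counting is not given in the sources used here, so reads of such a pair could be split between its genes.

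At 24h vs Naive, Tnfrsf9, Tnfrsf4, Tnfrsf8 and Tnfrsf18 rose, Tnfrsf1a, Tnfrsf1b and Tnfrsf25 fell, and Cd27 and Fas changed by less than the fold minimum. These are 4 of 9 called higher, where 25.7% of all genes tested were, and 3 of 9 called lower, where 21.0% of all genes were. The median of the 9 log2 fold changes was 0.42, beside 0.15 over all genes tested. At 48h vs Naive the same 4 genes were called higher (24.7% of all genes) and Cd27 joined the 3 genes called lower (20.7% of all genes). At 72h vs Naive those 4 were still called higher (24.5% of all genes), and Tnfrsf1a and Tnfrsf25 were called lower (19.0% of all genes). Scaling by median of ratios moved the median of all genes against Naive from 0.15, 0.15 and 0.21 at the 3 times to −0.075, −0.048 and −0.041. With it the share of calls against Naive that were higher went from 55.0%, 54.4% and 56.3% to 43.6%, 45.2% and 43.4%.

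**Figure D1:**
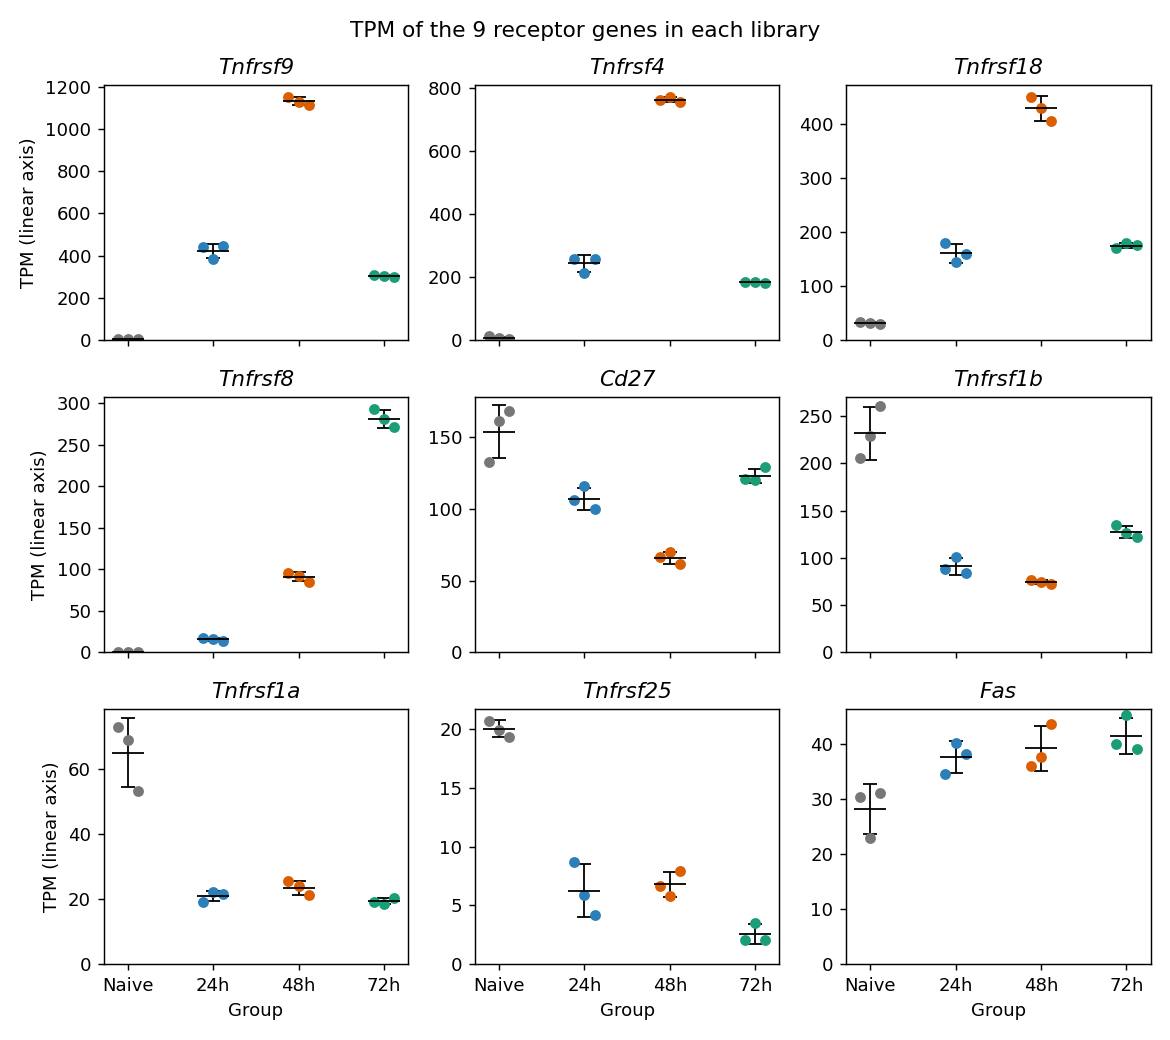
TPM of each receptor gene (vertical axes, linear and starting at 0, scaled per panel) in the 4 groups (horizontal axis), with 1 point per library and bars for the mean and SD of 3 libraries. Tnfrsf9, Tnfrsf4 and Tnfrsf18 peak at 48h, with means of 1131, 762 and 429 TPM, Tnfrsf8 is highest at 72h with a mean of 281 TPM, and Cd27 and Tnfrsf1b are lowest at 48h.

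Among the inducible receptors, Tnfrsf9 reached the highest level. Its product 4-1BB is a costimulatory receptor of CD8 T cells. It stood at 7.21, 3.84 and 4.40 TPM in the Naive libraries, 439, 382 and 444 at 24h, 1151.2, 1129.5 and 1113.5 at 48h, and 308, 304 and 301 at 72h. No 2 groups overlapped, and the order from low to high was Naive, 72h, 24h and 48h. The log2 fold change was 6.14 (SE 0.14) at 24h vs Naive (limma adjusted p = 4.17e-13), 1.43 at 48h vs 24h (adjusted p = 4.50e-06) and −1.89 at 72h vs 48h (adjusted p = 6.04e-07). At 72h vs 24h it was −0.47 (adjusted p = 0.0132), under the fold minimum. By adjusted p the 72h level was thus below the 24h level, but the limma adjusted p reached 0.0951 among the alternative fits.

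Tnfrsf4, whose product OX40 supports the survival of activated T cells, followed the same course at a lower level. Its Naive libraries held 11.7, 5.23 and 4.39 TPM, with the first of them apart from the other two. It was at 258, 212 and 258 TPM at 24h, 761, 771 and 755 at 48h, and 183, 185 and 180 at 72h. Every 48h library thus stood above every other library. The log2 fold change was 5.01 (SE 0.23) at 24h vs Naive (limma adjusted p = 1.63e-10), 1.65 at 48h vs 24h (adjusted p = 5.50e-05) and −2.05 at 72h vs 48h (adjusted p = 1.41e-05). Between 24h and 72h Tnfrsf4 did not pass (−0.40, adjusted p = 0.143, 95% interval −0.89 to 0.09), although the libraries of these groups did not overlap. Over the alternative fits the limma adjusted p of this difference ran from 4.11e-04 to 0.339, and with limma voom on recovered reads it was 0.00355. The Naive library of highest Tnfrsf4 also had the largest sum of myeloid markers (2856 TPM, against 1941 and 1118 in the others). Its sums of B cell, NK cell, and erythroid and platelet markers were the largest among the Naive libraries too. Without this library the change at 24h vs Naive was 5.39. Expression of the CD4 and regulatory T cell genes Cd4 and Foxp3, whose cells are known to carry OX40 and GITR, was 8.32, 8.18 and 3.93 TPM and 1.09, 0.918 and 0.339 TPM in the Naive libraries. The part of such cells in the Naive level was not tested.

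In TPM, Tnfrsf9 exceeded Tnfrsf4 in all activated libraries. The ratio was 1.74 ± 0.054 (24h), 1.48 ± 0.0259 (48h) and 1.66 ± 0.0208 (72h), against 0.785 ± 0.197 in Naive, where Tnfrsf4 was the more abundant on average.

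Tnfrsf18 differed from these 2 genes in having a clear level before activation. GITR, its product, is a costimulatory receptor known for its high level on regulatory T cells. The gene stood at 34.1, 31.8 and 29.6 TPM in Naive, 179, 144 and 160 at 24h, 451, 429 and 406 at 48h, and 170, 179 and 176 at 72h. All activated libraries lay above all Naive libraries, the 48h libraries lay above the rest, and those of 24h and 72h overlapped. The rise at 24h vs Naive was 2.30 (SE 0.08, limma adjusted p = 1.14e-11), that at 48h vs 24h 1.41 (adjusted p = 3.89e-08), and the fall at 72h vs 48h −1.29 (adjusted p = 1.06e-07). At 72h vs 24h the difference was 0.12 (adjusted p = 0.192, 95% interval −0.05 to 0.30).

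Tnfrsf8 took another course: it kept rising from 48h to 72h. Its product CD30 is a late activation receptor of lymphocytes. In the Naive libraries it had 0.626, 0.318 and 0.335 TPM, which rest on 14, 6 and 6 reads. It then reached 16.9, 15.8 and 13.8 TPM at 24h, 95.6, 91.7 and 84.9 at 48h, and 293, 281 and 271 at 72h. Each group lay wholly above the one before it. The steps were 3.54 (SE 0.10) at 24h vs Naive, 2.48 at 48h vs 24h and 1.62 at 72h vs 48h (limma adjusted p = 1.58e-12, 3.08e-09 and 8.80e-08). The first step depends on the pseudocount, since the Naive level is under 1 TPM: it was 4.93 with a pseudocount of 0.1, 1.92 with 5 and 4.99 with limma voom on recovered reads, and was called in each. Against Naive, the 72h mean in TPM was 660 times as high, whereas the log2 fold change of 7.64 is damped by the pseudocount of 1. The TPM ratio of Tnfrsf8 to Tnfrsf9 averaged 0.0819 ± 0.00536 in Naive and 0.0371 ± 0.00524 at 24h. It was 0.0802 ± 0.00352 at 48h and 0.925 ± 0.0253 at 72h.

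**Figure D2:**
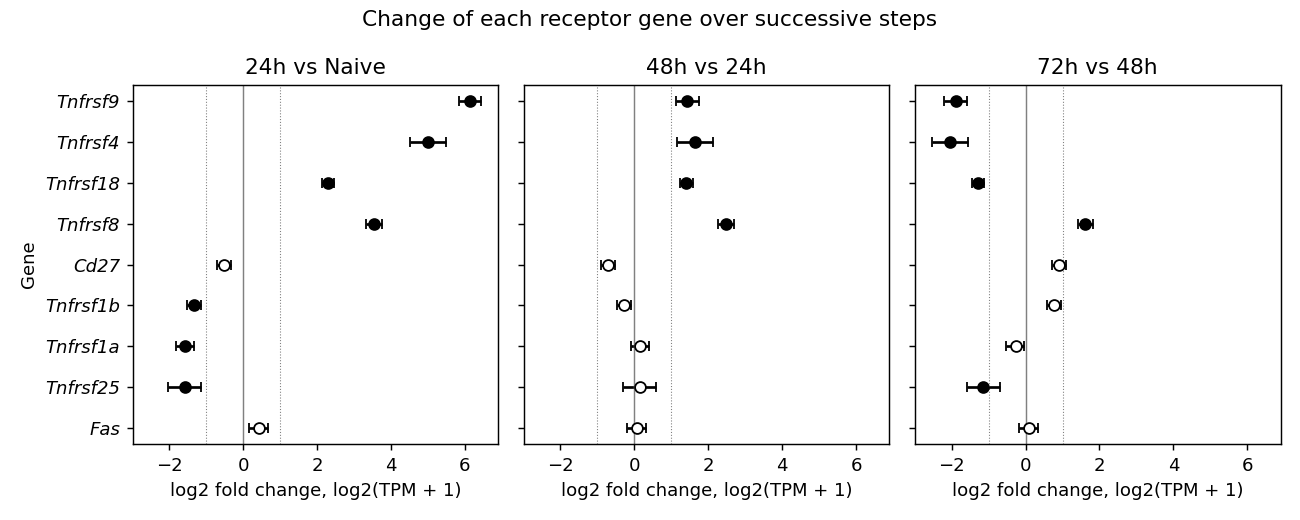
Log2 fold change of log2(TPM + 1) for each receptor gene (rows) over the 3 successive steps (panels, shared horizontal axis), with 95% intervals from the limma fit. Filled points were called and open points were not, and dotted lines mark the fold minimum. In the panel for 72h vs 48h, Tnfrsf8 (1.62) stands on the higher side where Tnfrsf9 (−1.89), Tnfrsf4 (−2.05) and Tnfrsf18 (−1.29) stand on the lower.

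From 24h to 48h, the second day on the plates, 4 of 9 receptor genes were called higher (Tnfrsf8, Tnfrsf4, Tnfrsf9 and Tnfrsf18), where 4.95% of all genes tested were. None was called lower, where 3.07% of all genes were. From 48h to 72h, 1 of 9 was called higher (Tnfrsf8, where 2.81% of all genes were) and 4 of 9 lower (Tnfrsf4, Tnfrsf9, Tnfrsf18 and Tnfrsf25, where 3.22% of all genes were). At 72h vs 24h, Tnfrsf8 was called higher by 4.10 (6.93% of all genes) and Tnfrsf25 lower by 1.01 (6.20% of all genes). The counts for these 3 comparisons were the same in a fit without the Naive libraries, an alternative chosen after seeing the data.

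Cd27, the receptor of CD70 and a costimulator of naive and memory T cells, was lower at 24h and 48h than in Naive and higher again at 72h, where Tnfrsf9, Tnfrsf4 and Tnfrsf18 had fallen and Tnfrsf8 had not. It stood at 133, 161 and 168 TPM in Naive, 106, 116 and 100 at 24h, 66.4, 69.6 and 61.2 at 48h, and 121, 120 and 129 at 72h. The 48h libraries were below all others, and the Naive libraries above all others. The log2 fold change was −1.21 (SE 0.09) at 48h vs Naive (limma adjusted p = 2.36e-08), which was called. Smaller differences passed on adjusted p but not on size: −0.51 at 24h vs Naive (adjusted p = 1.16e-04), −0.70 at 48h vs 24h (adjusted p = 2.84e-05), 0.90 at 72h vs 48h (adjusted p = 5.27e-06) and −0.31 at 72h vs Naive (adjusted p = 0.00511). Between 24h and 72h the difference was 0.20 (adjusted p = 0.0673). The Naive library with the largest myeloid, B cell, NK cell and erythroid marker sums had the lowest Cd27 of the 3. Without this library the change at 24h vs Naive was −0.61.

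Tnfrsf1b, which encodes the TNF receptor without a death domain, had the same shape and the highest Naive level of the 9 genes. It held 206, 229 and 261 TPM in Naive, 88.3, 101 and 84.0 at 24h, 76.6, 74.4 and 72.7 at 48h, and 135, 126 and 122 at 72h. No 2 groups overlapped. The gene fell by 1.34 at 24h vs Naive (SE 0.09, limma adjusted p = 8.27e-09) and by 1.62 at 48h vs Naive (adjusted p = 1.22e-09). At 72h vs 48h the difference was 0.76 (adjusted p = 2.01e-05), and at 72h vs Naive −0.85 (adjusted p = 8.95e-07), both under the fold minimum. The latter was called with median-of-ratios scaling (−1.14), quantile normalization (−1.17) and limma voom on recovered reads (−1.01).

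Tnfrsf1a, the TNF receptor that carries a death domain, fell and did not return. Its values were 72.7, 68.9 and 53.0 TPM in Naive, 19.2, 22.3 and 21.5 at 24h, 25.5, 23.9 and 21.3 at 48h, and 19.2, 18.4 and 20.3 at 72h. The Naive libraries stood far above the activated ones, and among these only 48h and 72h did not overlap. The log2 fold change against Naive was −1.57, −1.42 and −1.69 at the 3 times (SE 0.11 in each, limma adjusted p = 2.08e-08, 6.40e-08 and 1.08e-08), whereas 48h vs 24h (0.16), 72h vs 48h (−0.27) and 72h vs 24h (−0.12) did not pass (adjusted p = 0.271, 0.0688 and 0.397). In a fit without the Naive libraries 72h vs 48h had an adjusted p of 0.0218. In Naive libraries 1, 2 and 3 the myeloid sum was 2856, 1941 and 1118 TPM, in the same order as Tnfrsf1a. Myeloid cells are known to express this receptor. In the same libraries the B cell sum was 5732, 4585 and 3862 TPM and the NK cell sum 1208, 853 and 719 TPM. The erythroid and platelet sum was 2136, 1978 and 1530 TPM, so these sums ran in that order too. Within the NK list, Klre1, Gzma and Tyrobp each ran in that order. Ncr1, Klrb1c, Klra8, Klra4 and Cd7 were lower in library 2 than in library 3. The change of Tnfrsf1a at 24h vs Naive was −1.48 without library 1, −1.52 without library 2 and −1.71 without library 3. The part of RNA from any of these cells in the Naive level was not tested.

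Tnfrsf25, which encodes the death-domain receptor DR3, was the least abundant member at every activated time. It stood at 20.7, 19.9 and 19.3 TPM in Naive, 8.67, 5.90 and 4.22 at 24h, 6.68, 5.79 and 7.89 at 48h, and 2.08, 3.52 and 2.08 at 72h. The 24h and 48h libraries overlapped, and the 72h libraries, with 28, 46 and 30 reads, lay below all others. Against Naive, 24h, 48h and 72h differed by −1.57, −1.44 and −2.58 (SE 0.21, limma adjusted p = 9.37e-06, 2.25e-05 and 6.84e-08). The fall at 72h vs 48h was −1.15 (adjusted p = 7.10e-04), which lay under the fold minimum with a pseudocount of 5 (−0.64). That at 72h vs 24h was −1.01 (adjusted p = 0.00101), which fell under the fold minimum when 24h replicate 1 (−0.78), 72h replicate 1 (−0.91) or 72h replicate 3 (−0.92) was left out, with quantile normalization (−0.98) and with a pseudocount of 5 (−0.56).

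Fas, the death receptor of Fas ligand, had the smallest ratio of highest to lowest group mean among the 9 genes (1.47), although at 72h vs Naive Cd27 differed less in size (−0.31 against 0.55). Its values were 30.3, 22.9 and 31.1 TPM in Naive, 34.5, 40.1 and 38.1 at 24h, 36.0, 37.7 and 43.7 at 48h, and 40.0, 45.2 and 39.0 at 72h. All activated libraries lay above all Naive libraries, and the activated groups overlapped. The differences from Naive were 0.42, 0.47 and 0.55 (SE 0.12, limma adjusted p = 0.00483, 0.00203 and 6.30e-04), all under the fold minimum. With median-of-ratios scaling they were 0.15, 0.24 and 0.27 and did not pass (adjusted p = 0.308, 0.0958 and 0.0676).

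By adjusted p alone, without the fold minimum, 82.5%, 82.9% and 82.3% of all genes tested differed at 24h, 48h and 72h vs Naive. The shares were 52.1% at 48h vs 24h, 42.5% at 72h vs 48h and 60.0% at 72h vs 24h. Over the 4 groups, all 9 receptor genes passed the limma F test, as did 94.1% of all genes.

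The summed TPM of the 9 receptor genes was highest at 48h, with no overlap between groups. It was 516, 543 and 571 in Naive, 1150, 1039 and 1123 at 24h, 2670, 2633 and 2567 at 48h, and 1269, 1262 and 1240 at 72h. In Naive the largest shares were those of Tnfrsf1b (42.6 ± 3.0%) and Cd27 (28.3 ± 2.2%). At 48h they were those of Tnfrsf9 (43.1 ± 0.24%), Tnfrsf4 (29.1 ± 0.51%) and Tnfrsf18 (16.3 ± 0.54%), and Tnfrsf1b held 2.84 ± 0.023%. At 72h Tnfrsf9 held 24.2 ± 0.079%, Tnfrsf8 22.4 ± 0.62%, Tnfrsf4 14.5 ± 0.14% and Tnfrsf18 13.9 ± 0.47%. Tnfrsf8 thus went from the lowest of the 9 in Naive to the second highest at 72h. The 3 genes with a death domain, Tnfrsf1a, Tnfrsf25 and Fas, each held under 4% of the sum in the activated groups.

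**Figure D3:**
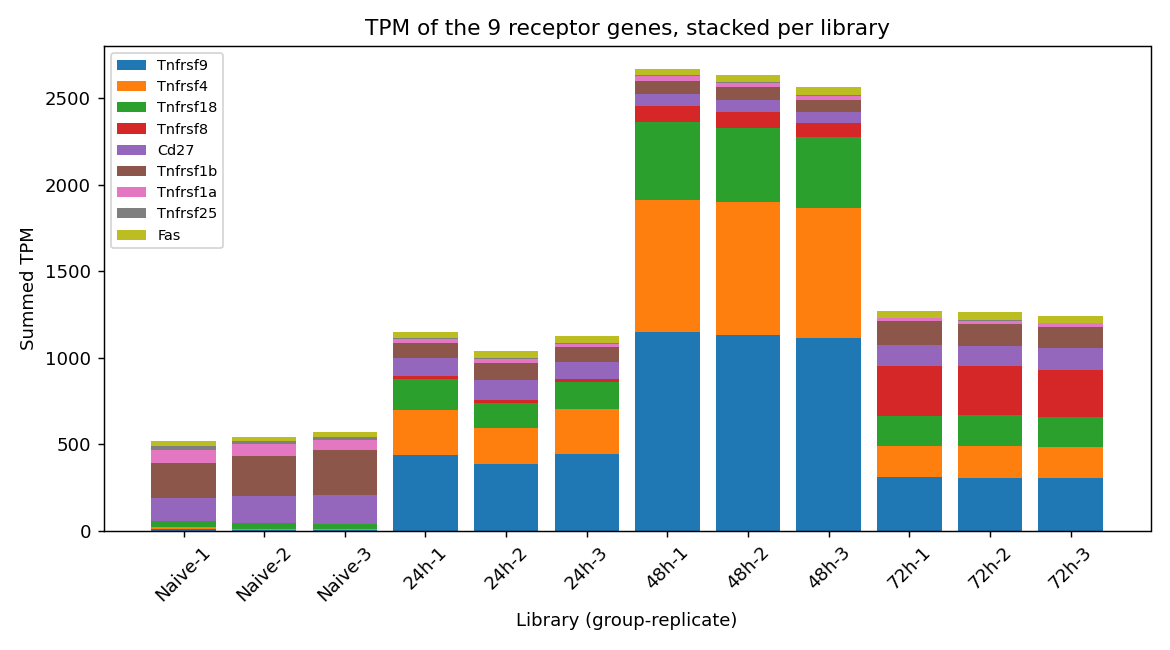
Summed TPM (vertical axis, linear) of the 9 receptor genes in each of the 12 libraries (horizontal axis), with 1 colour per gene. The 48h bars reach 2567 to 2670 TPM and consist mainly of Tnfrsf9, Tnfrsf4 and Tnfrsf18, the Naive bars reach 516 to 571 TPM and consist mainly of Tnfrsf1b and Cd27, and Tnfrsf8 becomes a large part only at 72h.

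Genes of the ligands were measured in the same libraries, and bulk RNA does not show which cells of a library held ligand or receptor RNA. Of 9 ligand genes, 7 were tested, and at 24h vs Naive 5 were called higher (Tnfsf4, Tnfsf8, Tnf, Lta and Cd70) and 1 lower (Fasl), beside 25.7% and 21.0% of all genes tested. The median of the 7 was 2.07, beside 0.15 over all genes. Lta, which encodes lymphotoxin alpha, a ligand of both TNF receptors, averaged 11.0 ± 1.23 TPM in Naive, 409 ± 3.34 at 24h, 951 ± 60.4 at 48h and 307 ± 29.7 at 72h. Its course thus had its peak at the time when Tnfrsf1b was lowest. Tnfsf8, the ligand of CD30, was highest at 24h, before its receptor, with 10.4 ± 0.86 TPM in Naive, 83.5 ± 10.2 at 24h, 48.8 ± 3.05 at 48h and 41.3 ± 1.91 at 72h. Fasl stood at 17.9 ± 4.33 TPM in Naive, 5.41 ± 0.626 at 24h, 28.9 ± 1.23 at 48h and 26.1 ± 1.69 at 72h, and it rose by 2.22 from 24h to 48h (SE 0.14, limma adjusted p = 1.18e-07) while Fas differed by 0.06 (adjusted p = 0.717).

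Ligands of 4-1BB, OX40 and GITR were at low levels. Tnfsf9, the ligand of 4-1BB, had a mean of 1.55 to 5.93 TPM in the 4 groups, and at 24h vs Naive it differed by 0.69 (limma adjusted p = 0.0116) with overlapping libraries. Tnfsf4, the ligand of OX40, had 0.201 ± 0.267 TPM in Naive and 10.9 ± 2.93 at 24h, and Cd70 was listed at 0 in all Naive libraries and had 3.26 ± 0.857 TPM at 24h. Tnf went from 18.4 ± 1.95 TPM to 44.6 ± 4.51 at 24h (1.23, adjusted p = 8.98e-08). Tnfsf18, the ligand of GITR, was listed at 0 in all 9 activated libraries and at 0.281 to 0.823 TPM in Naive, and Tnfsf15, the ligand of DR3, did not exceed 1.73 TPM in any library; neither passed the filter for testing.

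**Figure D4:**
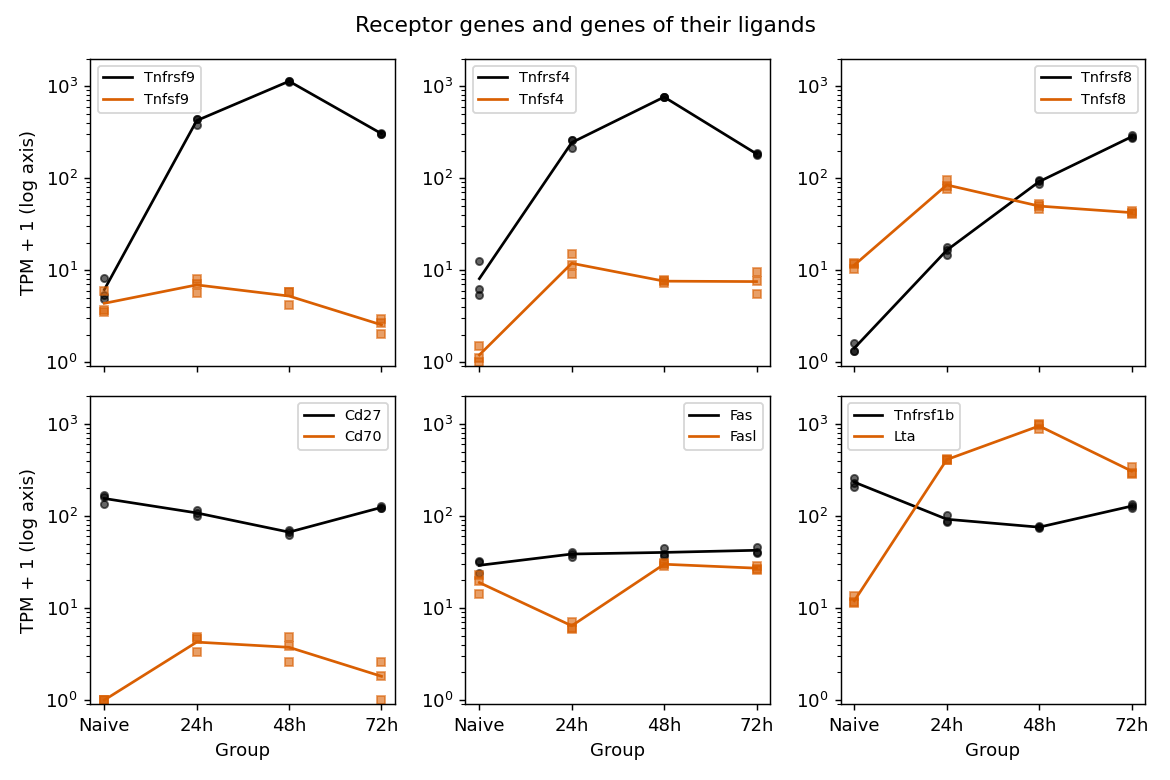
TPM + 1 (vertical axes, logarithmic) of a receptor gene (black circles) and of the gene of a ligand it binds (orange squares) in the 4 groups, with 1 point per library and lines through group means. Tnfrsf9 and Tnfrsf4 stand far above Tnfsf9 and Tnfsf4 in every activated group, Tnfsf8 is above Tnfrsf8 at 24h (83.5 against 15.5 TPM) and below it at 72h (41.3 against 281 TPM), and Lta is above Tnfrsf1b from 24h on.

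Downstream of the receptors, of 22 adaptor and death-domain signalling genes, 2 were called higher and 3 lower at 24h vs Naive, beside 25.7% and 21.0% of all genes tested, with a median of 0.09 beside 0.15 over all genes. Siva1, which encodes a protein that binds the CD27 tail, went from 37.8 ± 6.79 to 171 ± 16.8 TPM (2.16, SE 0.11, limma adjusted p = 6.19e-10), and Fadd, the adaptor of Fas, from 3.97 ± 0.219 to 16.2 ± 1.84 TPM (1.79). Map3k14, the kinase of the alternative NF-kappaB pathway, fell from 57.6 ± 14.4 to 17.1 ± 1.22 TPM (−1.67). At 48h vs 24h only Traf1 was called among the 22, higher, beside 4.95% of all genes called higher and 3.07% lower. Traf1, an adaptor of 4-1BB, stood at 52.3 ± 4.26 TPM in Naive, 55.8 ± 1.84 at 24h, 129 ± 1.64 at 48h and 39.4 ± 1.00 at 72h. It rose by 1.20 in the step to 48h (SE 0.06, adjusted p = 2.87e-08) and fell by 1.69 in the step to 72h (adjusted p = 1.66e-09), in the direction of Tnfrsf9, Tnfrsf4 and Tnfrsf18 at both steps. Traf4 fell by 1.25 in the latter step. Casp8, the caspase of death receptors, had 71.0 ± 3.90 TPM in Naive libraries and 169 ± 4.85 TPM in 72h libraries (1.24, adjusted p = 7.21e-10).

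Of 13 NF-kappaB genes, 2 were called higher and 3 lower at 24h vs Naive, beside 25.7% and 21.0% of all genes tested. None was called at 48h vs 24h, beside 4.95% of all genes higher and 3.07% lower. At 72h vs 48h none was called higher and 5 were called lower, beside 2.81% and 3.22% of all genes. Nfkb1, which encodes the p50 subunit, had 108 ± 8.43 TPM in Naive, 503 ± 11.5 TPM at 24h and 347 ± 7.41 TPM at 72h. Tnfaip3, an inhibitor of the pathway, fell from a Naive level of 865 ± 153 TPM to 36.9 ± 1.37 TPM at 24h (−4.50, limma adjusted p = 4.53e-13).

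For each receptor gene the 3 genes of most similar course were taken, by Pearson r of log2(TPM + 1) over the 12 libraries among 10490 genes tested with at least 5 TPM in a group. The libraries fall into 4 groups, so r mostly reflects the 4 group levels, and it is given as a description. Tnfrsf9 ranked second for Tnfrsf4 (r = 0.996), and Uhrf1bp1 ranked first for both (0.999 and 0.996). Nars and Lta followed for Tnfrsf9 (both 0.997), and Dmwd for Tnfrsf4 (0.995). Nearest to Tnfrsf18 were Bsg (0.997), Sars (0.997) and Psph (0.995), and nearest to Tnfrsf8 were Acadl (0.997), Ccdc18 (0.995) and Cep19 (0.995). Cd68, a myeloid marker, ranked first for Tnfrsf1a (0.991), before Hes1 (0.990) and Zfp36 (0.989). For Tnfrsf1b the first was Klhl6 (0.993), a gene that the title of the series names, followed by Arl2bp (0.992) and Zfp652 (0.991). The genes nearest to Cd27 were Ing5 (0.981), Gbp9 (0.970) and Was (0.969), those nearest to Tnfrsf25 were Pja1 (0.971), Hhex (0.970) and Ppp1r13b (0.969), and those nearest to Fas were Smim15 (0.935), Nat2 (0.934) and Gm21994 (0.926).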

How the data were processed

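RNA-seq of 12 libraries was deposited as 1 table of TPM per gene; per the file headers the values are TPM by the authors, and each library sums to 1000000. Tools named in the submitters' processing notes are STAR 2.7.7a, edgeR 3.36.0, cutadapt 2.9 and FastQC 0.11.9, with the build GRCm39; the sources used here do not name the counting tool, the strand setting or how shared reads were treated. TPM is relative, so a large rise of some genes lowers the values of others.

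Here, genes reaching 1 TPM in 3 or more libraries were fitted on log2(TPM + 1) with limma 3.58.1 (R 4.3.3; 4 group means, intensity trend, 2-sided tests, Benjamini-Hochberg over 12630 genes in each of 6 comparisons). Whole reads were recovered from steps of the TPM values (tolerance 0.001 reads, 100.0% of genes above 0 in at least 2 libraries). For some genes they may be too low by an integer multiple. Replicates are as labelled, so p-values measure the spread between these libraries. Fits were tested on data simulated for 24h vs Naive. Of genes changed 1.5-fold 0.0% were called, of those changed 2-fold 28.0%, of those changed 4-fold 100.0%, and of unchanged genes 0.008%. A change near 2-fold can thus go uncalled. Python 3.11.15 was used for tables.

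Genes were named by rule: all members and ligands, the 3 genes of most similar course, and the top marker of each cell type. From each other list up to 3 called genes per comparison could be named, and only some of these are. Some other genes are named for context. Members and lists were chosen with earlier results of these data known. Alternatives were other pseudocounts, filters and scalings, a replicate block, fits on the compared groups, voom, and each library left out.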

Additional observations from a re-analysis of the deposited data

How the results depend on the processing

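Of 54 log2 fold changes (9 receptor genes in 6 comparisons), 49 kept their direction and their side of the threshold under every alternative run; the exceptions were Tnfrsf1b at 72h vs Naive and Tnfrsf25 at 72h vs 48h and 72h vs 24h, given above, and 2 small differences that changed sign. At 48h vs 24h, Tnfrsf25 (0.14) was −0.08 without 24h replicate 3 (range −0.08 to 0.37 over libraries left out), and Fas (0.06) was −0.0021 without 24h replicate 1 and −0.02 without 48h replicate 3 (range −0.02 to 0.11); the cause was not tested.

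The count of receptor genes called lower at 72h vs 24h went from 1 to 0 with a pseudocount of 5 and with quantile normalization, and was 0 to 1 with a library left out. A pseudocount of 5 moved the count of all genes called lower against Naive at 24h, 48h and 72h from 2657, 2609 and 2403 to 1641, 1636 and 1483. It moved the counts called higher and lower from 625 and 388 to 298 and 150 at 48h vs 24h, from 355 and 407 to 147 and 171 at 72h vs 48h, and from 875 and 783 to 409 and 339 at 72h vs 24h. A pseudocount of 0.1 gave 700 lower at 48h vs 24h, 584 higher and 663 lower at 72h vs 48h, and 1181 lower at 72h vs 24h. Limma voom on recovered reads gave 952 higher at 48h vs 24h, and 544 higher and 665 lower at 72h vs 48h.

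Same-numbered libraries did not deviate together (r −0.052 to 0.089 over 18 pairs), so these values gave no sign of pairing by number. The check cannot show that same-numbered libraries came from different animals or batches. With a replicate block the counts of receptor genes were the same in all 6 comparisons, and 3244 genes were higher and 2662 lower at 24h vs Naive. Depth limits Tnfrsf8 in Naive, with 6 to 14 reads, and Tnfrsf25 at 72h, with 28 to 46.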

Other observations

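Of 19 other receptor genes of the superfamily, 13 were tested. At 24h vs Naive none was called higher and 3 were called lower, beside 25.7% and 21.0% of all genes tested. At 72h vs Naive 2 were called higher and 6 lower, beside 24.5% and 19.0% of all genes. Tnfrsf26 stood at 101 ± 17.1 TPM in Naive (mean ± SD, n = 3), 10.1 ± 0.298 at 24h, 10.6 ± 1.28 at 48h and 23.6 ± 1.45 at 72h, and it rose by 1.09 from 48h to 72h (limma adjusted p = 1.29e-05). Tnfrsf13b, which encodes TACI, a receptor known from B cells, was at 30.1 ± 1.36 TPM in Naive, 24.4 ± 1.21 at 24h, 49.2 ± 1.20 at 48h and 70.4 ± 3.53 at 72h. Its rise at 72h vs 24h was 1.49 (adjusted p = 2.37e-09), beside a summed level of 10 B cell markers of 756 to 837 TPM at 24h and 525 to 550 TPM at 72h. Tnfrsf21 peaked at 24h with 19.4 ± 0.53 TPM and was at 1.87 ± 0.489 TPM at 72h (−2.84, adjusted p = 2.51e-07).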
